A study of Mus musculus with 6 samples.

Results

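The SR splicing factor genes described here are Srsf1, Srsf2, Srsf3, Srsf4, Srsf5, Srsf6, Srsf7, Srsf10, Srsf11 and Tra2b, 10 of 22367 protein-coding genes in the mouse GENCODE annotation on build mm9. A YTHDC1 binding peak was assigned to one of them when it lay inside the gene's interval on the strand opposite to the gene, because LACE-seq reads run opposite to the RNA they come from. LACE-seq crosslinks a protein to RNA with UV light, pulls the protein down with its RNA, and stops reverse transcription at the crosslinked base. The antibody was against YTHDC1, a nuclear protein that reads N6-methyladenosine (m6A) on RNA. All libraries came from wild type (WT) mouse cells of 2 kinds. ASC-48h are activated muscle satellite cells after 48 h, with 2 biological replicates (bio1, bio2) sequenced as 2 technical replicates each (tech1, tech2). C2C12 is an established line of myoblasts that was kept in growth medium, with 2 libraries labelled bio1 and bio2. No treatment, knockout or input library was part of the data used here, so the level of each transcript was not measured and more transcript cannot be told apart from more binding per transcript.

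SR proteins carry RNA recognition motifs and a domain rich in arginine and serine, bind exonic enhancers in pre-mRNA and recruit the spliceosome. Many SR genes control their own output through a poison exon, an extra exon or exon extension with an early stop codon that sends the mRNA to nonsense-mediated decay (NMD). YTHDC1 is known to work with SRSF3 protein in splicing and in mRNA export, and the peaks mark where its pull-down gave reads on the transcripts of this family. Poison exons were taken here as the parts of annotated NMD transcripts that lie in no coding exon or UTR of a protein-coding transcript. Such a stretch was annotated in 4 of the 10 genes, Srsf2, Srsf3, Srsf5 and Tra2b.

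A peak is 1 or more 20-nt bins in which a library's reads passed the authors' p threshold, and its value is the number of reads per bin. A C2C12 peak is called shared when a bio1 peak overlaps a bio2 peak on the same strand. The reference sequence of the shared sites that the results turn on is given below, from mm9, on the strand of the RNA, 5′ to 3′, with the 20-nt bin in capitals and 5 nt on either side in lower case. The first pair lies in the Srsf3 poison exon, the next pair in the Srsf5 poison exon, and the last ones are the highest shared peaks of Srsf5, Srsf4, Srsf2, Srsf6 and Srsf10 with 2 sites that hold the bases GGAC.
Srsf3 poison exon, far from the stop codon, chr17:29176781-29176800 (+): accttTTCAGCAAATTCTTCCTGGCcgtca
Srsf3 poison exon, near the stop codon, chr17:29176561-29176580 (+): tcccgAGCATGCTGTTTTCTCTCAGccttc
Srsf5 poison exon, upstream site, chr12:82049861-82049880 (+): tgttaAAAAATTGGAATGCCCTCTAgcatt
Srsf5 poison exon, downstream site, chr12:82049941-82049960 (+): ttgaaTTCTGATAGAATACAAGTGTggtat
Srsf5 coding exon, chr12:82048481-82048500 (+): tttgtAGGGTGACGATTGAACATGCccggg
Srsf4 at the stop codon, chr4:131456981-131457000 (+): tcaagGTCCTAACTGGCTCTGCCACgctgg
Srsf2 3′ UTR, chr11:116711541-116711560 (-): gtaaaGATGCCTTGTCGTGCAGAAAcaaat
Srsf6 intron, chr2:162758001-162758020 (+): ggcgcGGAGGCCGGGGCTTGTCGGCcctgg
Srsf10 intron, chr4:135415581-135415600 (+): tggcaCAGGCAGAATATCAGTTAGCtctgc
Srsf2 coding exon with GGAC, chr11:116714021-116714040 (-): gacgcCGAAGACGCCATGGACGCCAtggac
Srsf5 3′ UTR with GGAC, chr12:82051101-82051120 (+): ctttgTAGATGTGGACCACCAAGGGgttgt

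The peak lists held 60540 and 71992 peaks in C2C12 bio1 and bio2, and between 7925 and 19448 in the ASC-48h libraries. The SR genes held 52 of the bio1 and 66 of the bio2 peaks. All of them were on the strand of the RNA, and none of the 6 libraries had a peak on the other strand inside a member gene. The muscle markers Myod1, Pax7, Des and Myf5 each had a peak in at least 1 ASC-48h library. Des and Myf5 also had C2C12 shared peaks. Ptprc and Adipoq, which mark blood cells and adipocytes, had none in any library, and the endothelial marker Pecam1 had 1 peak in every library.

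The 10 SR genes held 26 C2C12 shared peaks, in 7 genes. Over all protein-coding genes, 21.8% held a shared peak. Srsf5 had 9, Srsf2 had 6, Srsf4 had 4, Srsf3 had 3, Srsf6 had 2, and Srsf1 and Srsf10 had 1 each. Srsf7, Srsf11 and Tra2b had none. Among the 4869 protein-coding genes with a shared peak the median was 2 peaks, and 89.3% of them had fewer than Srsf5. However, 6 of the 9 Srsf5 peaks have an exact copy elsewhere in the genome, as described below, so its rank rests in part on them. Of the 52 bio1 peaks in SR genes, 50% (95% Clopper-Pearson interval 35.8 to 64.2) were found in bio2, against 48% over the whole bio1 list. Of the 66 bio2 peaks, 39.4% (27.6 to 52.2) were found in bio1, against 40.4% over the whole bio2 list. Both intervals held the value of the whole list. Recurrence went with height: 6 of 7 bio1 peaks with 10 or more reads were found in bio2, but 20 of 45 with fewer reads. In the other direction, 6 of 9 bio2 peaks with 10 or more reads were found in bio1, and 20 of 57 with fewer.

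**Figure D1:**
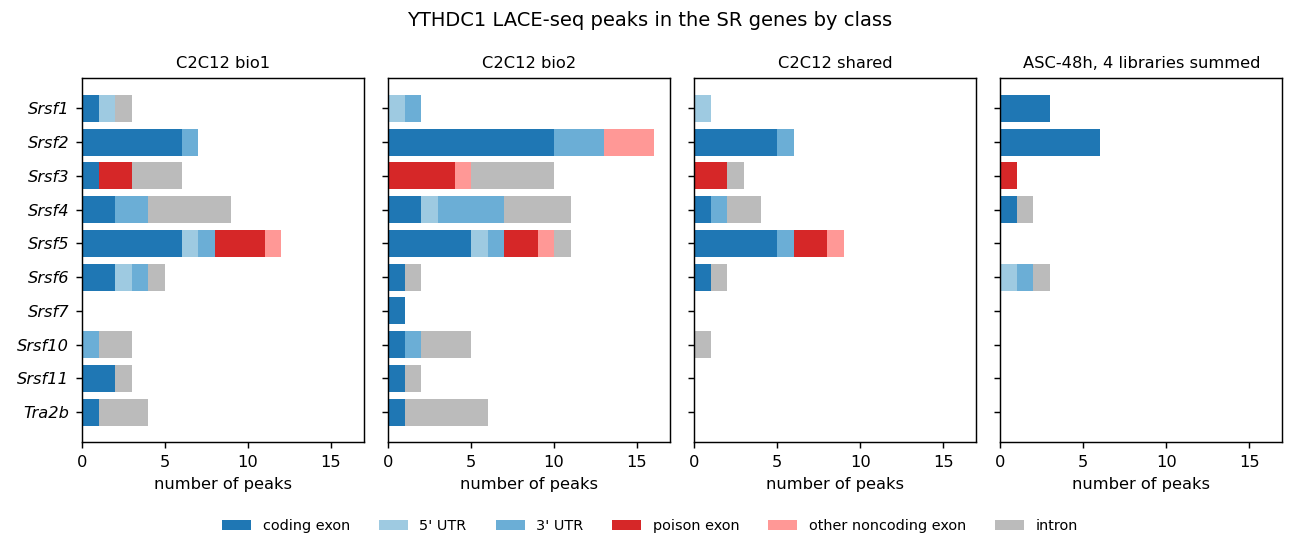
Number of YTHDC1 peaks (horizontal axis) in each SR gene (vertical axis), coloured by class, in the 2 C2C12 libraries, in the C2C12 shared list and in the 4 ASC-48h libraries summed. Srsf2 and Srsf5 held the most shared peaks, of which a part in Srsf5 has an exact copy elsewhere in the genome. Red poison exon peaks were seen in Srsf3 and Srsf5, and Srsf7 had no peak in bio1 and 1 in bio2.

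By class, 12 of the 26 shared peaks were in coding exons, 4 in poison exons, 3 in 3′ UTRs, 1 in a 5′ UTR, 1 in another noncoding exon and 5 in introns. Coding exons thus held 46.2% of them (26.6 to 66.6), against 41.7% of the 19075 shared peaks in all protein-coding genes. Introns held 19.2% (6.55 to 39.4), against 32.5%. Poison exons held 15.4% (4.36 to 34.9), against 0.147% over all genes, where 28 peaks were in a poison exon and in no coding exon or UTR of another gene. The SR genes were chosen with such peaks known, so this share is a description. With only whole cassette exons as poison exons, the SR share was 7.69%, all of it in Srsf3. Among the genes with an annotated poison exon, 2 of 4 SR genes held a shared peak in it, against 1.51% of 1660 genes. Among those that also held any shared peak the background was 4.95% of 505 genes. Of the SR genes, 2 of the 3 with any shared peak were among them. Of the 25 genes behind both shares, 17 held a peak that was in no coding exon or UTR of another gene.

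Per length, the 10 SR genes held 2 shared peaks per kb of poison exon, 1.2 per kb of coding exon, 0.277 per kb of 5′ UTR, 0.141 per kb of 3′ UTR, 0.0992 per kb of other noncoding exon and 0.0618 per kb of intron. Over all protein-coding genes the values were 0.0397 per kb of poison exon, 0.222 of coding exon, 0.151 of 5′ UTR, 0.143 of 3′ UTR, 0.0276 of other noncoding exon and 0.00661 of intron. The SR value was thus close to that of all genes in 3′ UTRs and higher in every other class. Over the 4869 genes with a shared peak, which include 7 of the 10 SR genes, the values were 0.117 per kb of poison exon, 0.73 of coding exon, 0.502 of 5′ UTR, 0.431 of 3′ UTR, 0.0792 of other noncoding exon and 0.0178 of intron. Against these genes the SR value was lower in both kinds of UTR and higher in the other classes. Within the 4 genes with a poison exon, coding exons held 3.24 shared peaks per kb and poison exons 2, a ratio of poison to coding density of 0.618. That ratio was 1.09 when only whole cassette exons counted as poison exons, and 1.24 without the Srsf5 peaks that have an exact copy in the genome. The latter setting kept the Srsf3 poison exon peak that has exact copies too. When every peak with an exact copy elsewhere was left out, the ratio was 0.927. The order of both classes thus changed with some settings and not with others.

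**Figure D2:**
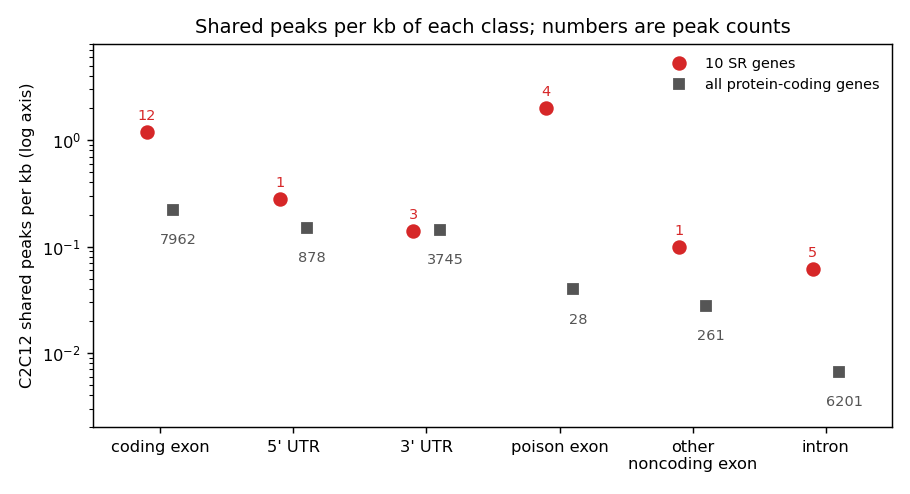
C2C12 shared peaks per kb (vertical log axis) in each class of the 10 SR genes (red circles) and of all protein-coding genes (grey squares), with the number of peaks beside each point. In 3′ UTRs the points stand at 0.141 and 0.143 per kb, where genes with a shared peak, not drawn, had 0.431, and the red poison exon point rests on 4 peaks.

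Srsf3 encodes one of the smallest SR proteins, a partner of YTHDC1 that acts in splicing and mRNA export. Its poison exon is a cassette exon of 456 nt at chr17:29176399-29176854, present in the NMD transcript and in no protein-coding transcript, with a stop codon that starts at base 32 of the exon. The far site printed above had 16 reads in bio1 and 18 in bio2 (mean 17 ± 1.41 SD, n = 2). This was the highest of the 26 shared SR peaks, and only 1 of the 28 shared poison exon peaks over all genes had a higher mean. Of the 19075 shared peaks in protein-coding genes, 1.98% reached that mean, and their median was 8.

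The near site in the same exon had 6 reads in bio1 and 7 in bio2. The centre of the near site was 138 nt and that of the far site 358 nt beyond the stop codon, and the far site was 64 nt before the end of the exon. Library bio2 alone had a further pair of peaks in this exon, with 9 reads at chr17:29176461-29176480 and 6 reads at chr17:29176601-29176620. Bio1 had 2 and bio2 had 4 peaks in the poison exon.

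The coding exons of Srsf3 held no shared peak in 495 nt. The only other shared peak was in the first intron, 418 nt after its start, with 8 and 7 reads. Bio2 alone had 11 reads at chr17:29175421-29175440, which spans the 3′ splice site ahead of the coding exon before the poison exon.

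The far site has a limit of sequence. Its 20 bases occur at 6472 other sites in the genome with up to 2 mismatches, 3 of them exact, while the median of the 26 shared peaks was 6.5 other sites. None of these sites carried a peak in C2C12 bio1 or bio2 on the matching strand. When 10 nt more were taken on either side, the resulting 40 nt occurred once, as did those of 24 of the 26 shared peaks in all. The 20 bases of the near site occur exactly once, in Srsf3, and at 38 other sites with up to 2 mismatches.

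Srsf5 encodes an SR protein with a pair of RNA recognition motifs. Its poison exon is not a cassette but a stretch of 966 nt, chr12:82049116-82050081, that extends a coding exon upstream in an NMD transcript for which no coding sequence is annotated. No stop codon could thus be placed in the stretch, which counts as a poison exon by its transcript type only. Exon sequence of a retained intron transcript borders it upstream. Reads of a retained intron were not told apart here from reads of the NMD transcript. The upstream site there had 10 reads in bio1 and 7 in bio2. The downstream site had 7 in bio1 and 12 in bio2. The libraries put these sites in opposite order, and each site's SD (2.12 and 3.54 reads) was larger than the difference of 1.0 read between their means of 8.5 and 9.5.

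A further shared peak at chr12:82049101-82049120 had 9 and 6 reads. It spanned the first base of the same extension, with its centre in the exon of a retained intron transcript, so it was counted as another noncoding exon. The second NMD stretch of Srsf5, 195 nt long, had no peak in any library.

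Coding exons of Srsf5 held 5 shared peaks in 814 nt, a density of 6.14 per kb against 1.72 in its poison exon stretches. The highest was in the coding exon site printed above, with 11 reads in bio1 and 16 in bio2, whose centre was 7 nt after the start of its exon. The last coding exon held another 3 shared peaks, of which the highest had 11 reads in bio1 and 11.5 in bio2.

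These coding peaks and the 3′ UTR peak, 6 in all, share their 20 bases exactly with a site at chr4:129576532-129577303, most of it the annotated pseudogene Gm12966. For 5 of the 6, that site also carried a peak, with 6 to 9 reads in bio1 and, for 4 of them, 7 to 9 reads in bio2. The reads were aligned with up to 10 positions allowed per read, so a read of such bases may be counted at both places. The highest Srsf5 peak was the exception, since its copy carried no peak in either library. The 3 peaks of Srsf5 in its noncoding stretches had no exact copy. In windows of 40 nt, only the Srsf5 peaks at chr12:82048541-82048560 and chr12:82051101-82051120 still had an exact copy.

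**Figure D3:**
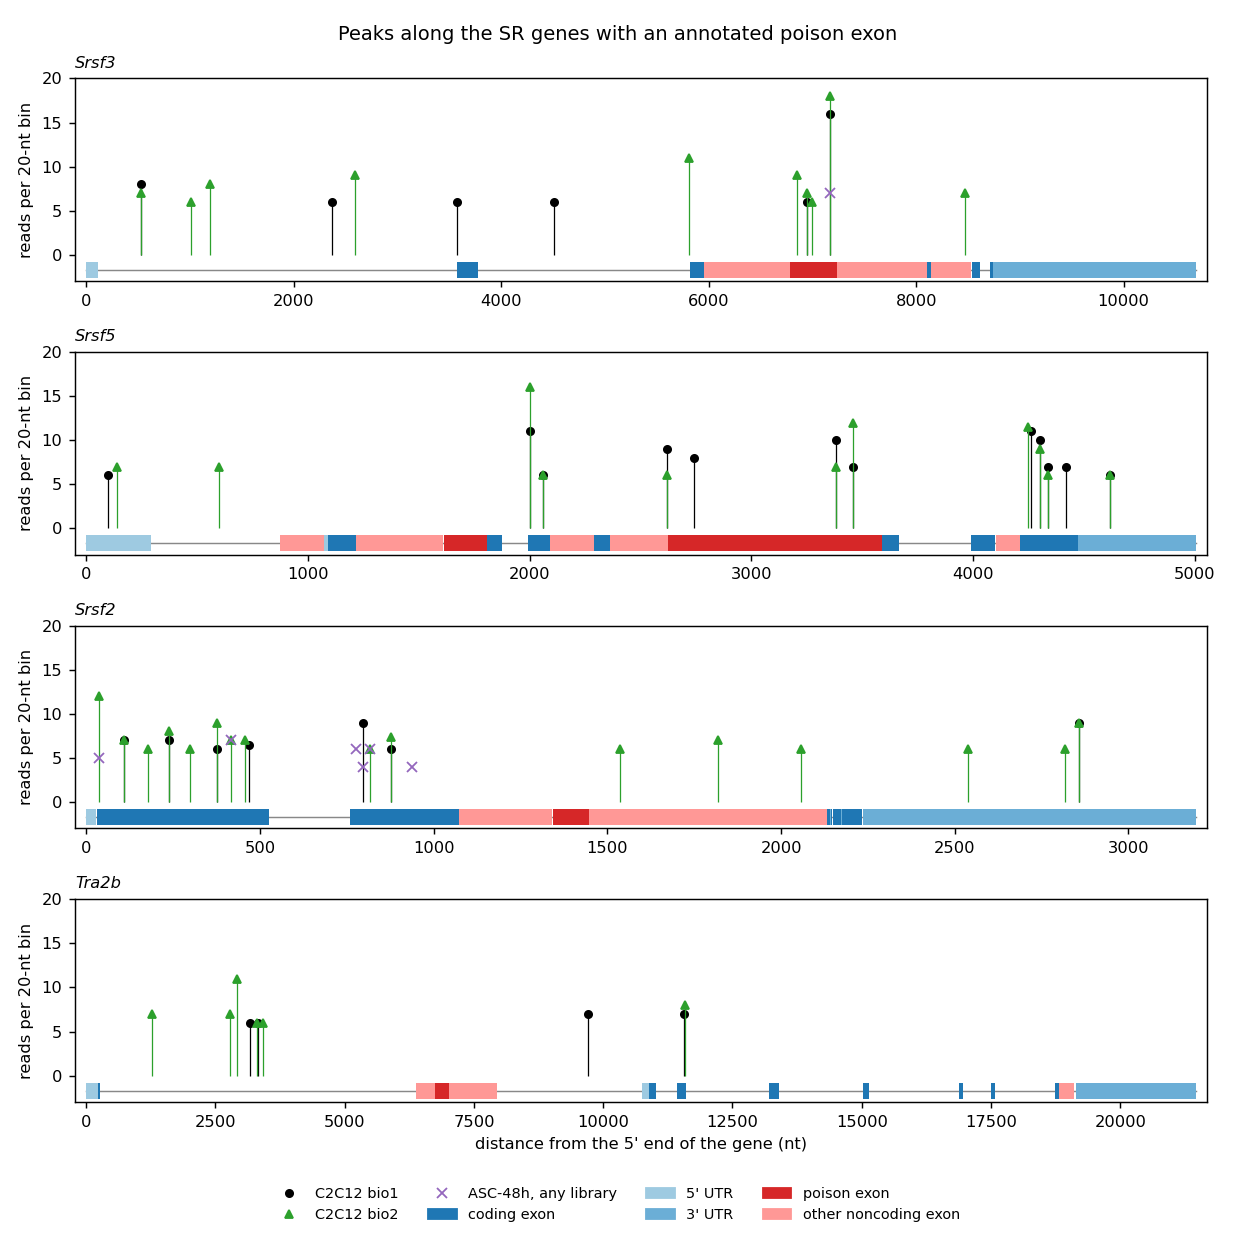
Reads per 20-nt bin (vertical axis) of every peak along Srsf3, Srsf5, Srsf2 and Tra2b, by distance from the 5′ end of the gene in nt (horizontal axis), for C2C12 bio1 (circles), C2C12 bio2 (triangles) and any ASC-48h library (crosses). Boxes below 0 show exon classes and the line the introns. The highest point is the Srsf3 poison exon site with 16 and 18 reads, and the poison exons of Srsf2 and Tra2b hold no peak.

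Srsf2 (SC35) and Tra2b, an SR-like activator of exon inclusion, are textbook cases of poison exons. The Srsf2 cassette of 104 nt and the Tra2b cassette of 276 nt had 0 peaks in all 6 libraries. A stop codon starts at base 79 of the Tra2b cassette. None was placed in the Srsf2 cassette, which counts as a poison exon by its transcript type only. Over all genes with an annotated poison exon, of any length, 1.51% of 1660 held a C2C12 shared peak in it. Among those that held any shared peak, as Srsf2 did, the share was 4.95% of 505. The part of exon length was not tested. Srsf2 held most of its shared peaks along the coding region, with 5 in 910 nt, a density of 5.49 per kb. These coding peaks had 6 to 7 reads in bio1 and 7 to 9 in bio2. The highest shared Srsf2 peak was in the 3′ UTR, with 9 reads in each library. Of the C2C12 libraries, bio2 alone had a peak at the start of the coding region, with 12 reads at chr11:116714361-116714380, and ASC-48h bio2_tech2 had 5 reads in the same bin.

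Srsf2 also differed most between the C2C12 libraries, with 7 peaks in bio1 and 16 in bio2. The extra bio2 peaks included 3 in other noncoding exon sequence downstream of the poison cassette. Mfsd11 and 1110005A03Rik overlap Srsf2 on the other strand. No peak in Srsf2 lay on the strand that reads of those genes would give.

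Tra2b had 4 peaks in bio1 and 6 in bio2, none of which overlapped. On 2 occasions a bio1 peak had its bio2 counterpart in the next bin, of which one was in the coding exon, with 7 and 8 reads in adjacent bins whose bases occur 3 and 4 times in the genome. The other was in an intron, where the bases of the bio1 bin occur 46414 times. The highest Tra2b value was 11 reads in an intron in bio2 alone. Counting peaks in adjacent bins as shared raised the total for the 10 genes from 26 to 30, and gave Tra2b 2 shared peaks.

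The other SR genes have no stretch that met the definition of a poison exon in this annotation. Srsf1, the founding SR protein SF2/ASF, and Srsf11 have NMD transcripts, but their exons lie within coding exons or UTRs of protein-coding transcripts. Srsf4, Srsf6, Srsf7 and Srsf10 have no NMD transcript here. Peaks in poison exons of these genes could thus not be counted. When NMD exons were given precedence over UTRs, 3 SR genes instead of 2 had a shared peak in a poison exon.

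Srsf4, which encodes a long SR protein, had 4 shared peaks. The highest had 10 reads in bio1 and 12 in bio2 (mean 11 ± 1.41 SD, n = 2), and its centre was 2 nt into the 3′ UTR, so the bin spans the stop codon. The gene Gm12992 is also annotated at this bin and at the shared coding exon peak of Srsf4. Bio1 had a peak of 9 reads at chr4:131457021-131457040, further into the same UTR, and bio2 had 3 others there. Introns held 2 of the 4, with 6 and 7 reads at one and 7 and 9 reads at the other.

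Srsf1 had 1 shared peak, in the 5′ UTR, with 7 and 9 reads, where the gene Gm11508 is also annotated. Srsf6 had 1 in a coding exon, with 6 and 8 reads, and 1 in an intron, with 7 and 9 reads. The single shared peak of Srsf10, whose protein represses splicing when dephosphorylated, was in an intron, with 8 and 10 reads. Bio1 alone had 15 reads in the Srsf10 3′ UTR, the second highest value of that library in the SR genes, and bio2 had no peak in that bin. Its single peak in this UTR had 6 reads, at chr4:135423341-135423360. The bases of the bio1 bin occur 2 times in the genome.

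Srsf7 had no peak in bio1 and 1 coding exon peak of 6.5 reads in bio2. Srsf11 had 3 peaks in bio1 and 2 in bio2, each with 6 reads, the lowest value in these lists.

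**Figure D4:**
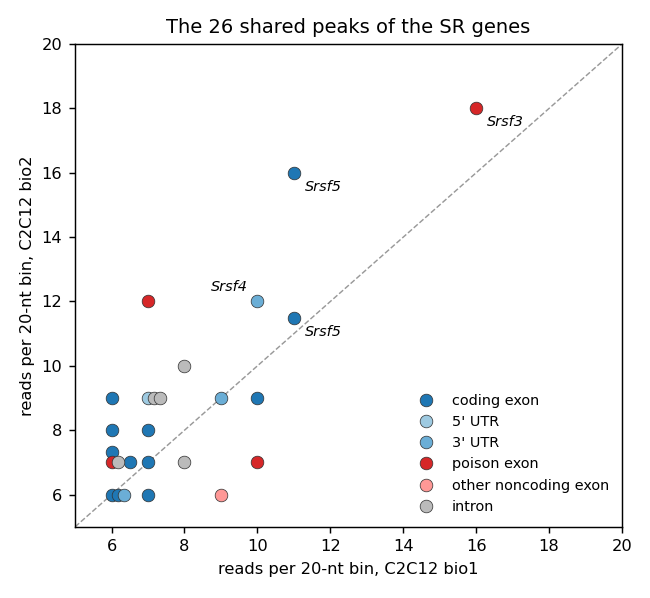
Reads per 20-nt bin of each of the 26 shared SR peaks in C2C12 bio1 (horizontal axis) and bio2 (vertical axis), coloured by class; the dashed line marks equal values and coinciding points are shifted slightly to the right. The Srsf3 poison exon peak stands at 16 and 18 reads, and 16 of the 26 peaks were higher in bio2.

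Over the 26 shared peaks the mean of both libraries ranged from 6 to 17 reads with a median of 7.5. Of these, 16 were higher in bio2, 5 were higher in bio1 and 5 were equal. The SD reached 3.54 reads, so most of the peaks cannot be ranked by height. The 4 peaks with a mean of at least 10 reads were the Srsf3 far site, a pair in Srsf5 coding exons and the Srsf4 stop codon site.

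Coding peaks were then placed along the protein through the longest annotated coding sequence. An arginine- and serine-rich stretch was a run of residues whose window of 21 held at least 50% Arg or Ser. In Srsf5, 4 of the 5 coding peaks were in such a stretch, which made up 35.6% of its 270 residues. All 4 have an exact copy in the pseudogene described above, and each copy carried a peak in C2C12 bio1, so their reads may be counted at both places. The Srsf4 and Srsf6 coding peaks were outside, in proteins with 43.8% and 31.3% of such residues.

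The longest coding sequence of Srsf2 in this annotation holds no such stretch, whereas the 221-residue sequence of another of its transcripts has 38.5%. Through the latter, 1 of the Srsf2 peaks was in the stretch, 3 were outside and 1 was not in that sequence. Over all genes and the longest sequences, 4 of 12 coding peaks were in such stretches, which made up 28.4% of the residues. These 4 were the Srsf5 peaks with an exact copy.

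The GGAC core of the m6A consensus was searched on the RNA strand in each peak with 20 nt on either side. It was present in 9 of the 26 shared peaks, 34.6% (17.2 to 55.7), against 20.1% of all shared peaks in protein-coding genes. None of the 4 poison exon peaks had it. The purine-rich enhancer sequence GAAGAA was present in 0 of 26 (0 to 13.2%), against 2.09%. No SR peak lay within 20 nt of a run of 10 G on the read strand, against 1.2% of all.

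In the satellite cells the SR genes held 15 peaks over the 4 libraries. All were in biological replicate bio2, with 6 in bio2_tech1 and 9 in bio2_tech2, while bio1_tech1 and bio1_tech2 had 0. The lists of those bio1 libraries held 8115 and 10759 peaks, against 7925 in bio2_tech1 and 19448 in bio2_tech2. The part of list length in this difference was not tested. Without bio2 no SR peak was left. Any ASC-48h peak was seen in 5 of the 10 genes, against 25% of all protein-coding genes. Srsf2 had 6 of the 15, Srsf1 3, Srsf6 3, Srsf4 2 and Srsf3 1. None was found in more than 1 library, although the bio2 libraries are technical replicates. The closest pairs between them were in adjacent bins of the Srsf2 coding region.

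The Srsf3 peak in bio2_tech2 was the poison exon far site, with 7 reads in the same bin as in both C2C12 libraries. It was the single ASC-48h peak that overlapped a C2C12 shared peak, and 6 of the 15 overlapped a peak of at least 1 C2C12 library. The highest ASC-48h value in the SR genes was 10 reads in an Srsf6 intron in bio2_tech1, its centre 40 nt from that of the nearest C2C12 peak. Of the 15 peaks, 10 were in coding exons. The ASC-48h and C2C12 counts were not tested against each other, since the lists differ in length, and 2 biological replicates against 2 libraries allow an exact two-sided permutation p of no less than 0.333.

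The genes with the most shared peaks in annotated poison exons outside the SR set were Dpm1 with 10, Ddx5 and Cpne1 with 6 each, and Ythdc1 and Hspa14 with 3 each, against 2 in Srsf3 and 2 in Srsf5. All of those in Dpm1, Cpne1 and Hspa14 were also in a coding exon or UTR of another gene on the same strand. None of those in Ddx5, an RNA helicase gene, or in Ythdc1, which encodes the precipitated protein, were.

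Among 10 other genes of SR and SR-related proteins, 7 held a shared peak, 96 in all, of which 49 were in Srrm2, 24 in Son and 18 in Acin1. Srrm2 and Son code for very large scaffold proteins of nuclear speckles, and 42 and 23 of their peaks were in coding exons. None of the 96 was in a poison exon, though only Srrm1 and Son had one annotated. Of 9 genes for kinases and the importer of SR proteins 3 held a shared peak (Srpk1, Srpk2 and Clk3), and of 8 NMD factors 3 did (Upf2, Smg5 and Smg6), where the background over all protein-coding genes was 21.8%.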

How the data were processed

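Per the labels and the study's methods, the authors trimmed reads with Cutadapt 1.15, removed pre-rRNA reads and aligned the rest to mm9 with Bowtie 1.2.3, allowing 2 mismatches and reporting up to 10 best positions per read. Peaks were called in each library with Piranha, with p of at most 0.001 in 20-nt bins. The settings are stated for ASC, and those for C2C12, read length and duplicate removal were not given in the sources used here. The deposited lists hold a signal per peak, the reads per bin of that library (a mean for wider peaks), not normalized for depth, and Piranha's p-value, not adjusted.

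Peaks were placed with GENCODE M1 on NCBIM37 (mm9) by their centre, in the order coding exon, UTR, poison exon, other noncoding exon (retained introns included) and intron. Exact and near copies were counted on the assembled chromosomes. Python 3.11.15, scipy 1.17.1, pysam 0.24.0 and numba 0.67.0 were used, and the code passed 12 of 12 checks on simulated data with 8000 peaks. Intervals are Clopper-Pearson at 95% and cover counting error only. C2C12 libraries are labelled as biological replicates but the study's text calls them technical, so their SD may be technical. The SR genes and lists were chosen with earlier results of these data known. Named peaks were the highest shared peak of each gene, every shared peak in a poison exon, every ASC-48h peak found in more than 1 library, and others chosen after their values were seen. The 5 compared genes had the most shared peaks in poison exons. Total reads per library were not used here.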

Additional observations from a re-analysis of the deposited data

Results flagged for a closer look

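In the ASC-48h libraries, Srsf1 had 3 peaks in bio2_tech2 and 0 in each of the other libraries, and Srsf3 had 1 peak in bio2_tech2 and 0 in the others. Both were flagged because the highest library stood apart from the other three by the whole range of the group, which any gene with peaks in a single library does. Chance flags about 1 in 20 groups of continuous values, a rate that was not worked out for counts this low. The 6 groups with differing values were examined. Both calls rest on the longest of the ASC-48h lists, with 19448 peaks and the lowest limit, 4 reads per bin. The part of list length in these results was not tested.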

How the results depend on the processing

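Over 24 alternatives, 88 of 120 values stayed within 1.5 times their value or, for a share, within its interval. No paired analysis was possible because the comparisons are counts and shares with no test, and the replicate numbers of ASC-48h and C2C12 do not mark shared samples. Stricter lists gave fewer peaks. With p of at most 0.0001, shared SR peaks numbered 7, SR genes with a poison exon peak 1, ASC-48h peaks 8, and genes with a shared peak 11.4%. With p of at most 0.00001, the values were 3, 1, 4 and 6.12%, and introns held 0%. With at least 8 reads they were 7, 1, 1 and 11.7%. The ratio of poison to coding density was 1.55 with p of at most 0.00001, from only 1 peak in each of both classes. Single C2C12 lists gave 52 to 66 SR peaks and 33% to 36.9% of genes. Leaving out ASC-48h libraries or biological replicates gave 0 to 15 peaks, and 6 to 15 for single libraries. The density ratio was 0.927 with peaks of 1 exact copy. Chosen after the data were seen, whole cassettes gave 1 gene and a ratio of 1.09, and leaving out Srsf5 peaks with an exact copy gave 1.24. Requiring no other site with up to 2 mismatches left 1 shared peak, 2 ASC-48h peaks, 100% in coding exons, 0% in poison exons and introns, 0 genes and a ratio of 0. Such sites are met by most 20-nt sequences here, with a median of 6.5. The lists start at 4 to 6 reads, so absence of a peak means fewer reads than that, and the shared count rests on peaks near this limit. Other causes were not tested.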
